A study of Mus musculus with 20 samples.

Results

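The monoamine and acetylcholine receptor transcripts of the mouse brain were taken from a table of gene expression values by symbol. They comprised the serotonin (Htr), muscarinic (Chrm) and nicotinic (Chrn) acetylcholine, adrenergic (Adra and Adrb), dopamine (Drd3, Drd4 and Drd5) and histamine (Hrh) receptor genes, together with Lynx1 and Lypd1, small Ly6-type proteins that bind nicotinic receptors. The rule matched 53 of 24528 genes, and 2 of them, Chrnd and Chrng, which encode subunits of the muscle nicotinic receptor, were listed at 0 in every library. The remaining 51 genes were 14 serotonin, 14 nicotinic, 9 adrenergic, 5 muscarinic, 4 histamine and 3 dopamine receptor genes and the 2 Ly6-type genes. Counts of receptors below include the 2 Ly6-type genes, which are not receptors themselves. Hrh4 carried tied values typical of zero counts in both regions and Htr3b in the hippocampus, so 50 genes were tested in the neocortex, 49 in the hippocampus and 49 across both regions.

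RNA libraries came from 2 brain regions, neocortex and hippocampus, of TDP-43wt and TDP-43KQ/KQ animals aged 18 months. TDP-43KQ/KQ mice are homozygous for a knock-in of the endogenous Tardbp gene, made by CRISPR/Cas9 in C57BL/6J zygotes, that puts glutamine in place of the lysine whose acetylation weakens RNA binding by TDP-43. The mutation is present in every cell that expresses Tardbp, and the controls carried the unedited gene. The neocortex gave 5 TDP-43wt (3 female, 2 male) and 6 TDP-43KQ/KQ libraries (3 female, 3 male), and the hippocampus gave 4 TDP-43wt (3 female, 1 male) and 5 TDP-43KQ/KQ libraries (3 female, 2 male). Libraries are named by sex and number (F1, M1), and values are listed in that order.

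The values are on a log2-like scale from which sex and litter had been removed, and each gene was set to a mean of 0 over the neocortex TDP-43KQ/KQ libraries. A value is therefore a difference from that mean, not a level, and neither abundance nor read depth can be read from it. This scale also shrinks differences of weakly expressed genes. Because litter was removed over both regions together, the KQ/KQ F2 libraries, the only pair of litter 1, deviate from their groups by equal and opposite amounts, and the neocortex wt M1 library, alone in litter 2, sits exactly at its fitted value and adds nothing to a test. In bulk tissue, fewer cells of a type and less RNA per cell cannot be told apart. Nothing states whether the regions came from the same mice, although the female libraries of both regions match in genotype, number and litter, so p-values measure the spread between libraries.

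The labels were checked against known transcripts. Tardbp, the edited gene, which TDP-43 itself keeps low, was higher in TDP-43KQ/KQ than in TDP-43wt neocortex by 1.0 ± 0.089 (SE), adjusted p = 0.000117 (limma). The hippocampal difference was 0.83 ± 0.095 (SE), adjusted p = 0.00163. Prox1, a transcription factor of dentate granule cells, ran from 1.46 to 2.0 in hippocampus TDP-43KQ/KQ libraries and 1.96 to 2.17 in hippocampus TDP-43wt libraries, against -0.22 to 0.36 and -0.09 to 0.24 in the neocortex. Lamp5, a marker of neocortical neurons, was lower in the hippocampus of TDP-43wt mice (-1.88 ± 0.089 (SE), adjusted p = 8.24e-10). Of 11 neocortical excitatory neuron markers, 8 were lower and 3 higher in the hippocampus in both genotypes, and of 11 hippocampal excitatory neuron markers, 7 were higher and 1 lower in TDP-43wt and 8 higher and 1 lower in TDP-43KQ/KQ mice.

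Serotonin, noradrenaline, dopamine and histamine reach the neocortex and hippocampus through axons of small brainstem and hypothalamic nuclei, and acetylcholine mainly through axons of the basal forebrain. Most of their receptor genes encode single proteins coupled to G proteins. Gs-coupled members raise cyclic AMP, Gi-coupled members lower it, and Gq-coupled members activate phospholipase C. The nicotinic and Htr3 receptors are instead ligand-gated channels of several subunits, and Ly6-type proteins such as Lynx1 act as brakes on nicotinic channels. Which receptor a neuron carries sets how it responds to the same transmitter, and the hippocampus and neocortex are known to use different mixtures.

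Promoters are shown for the 2 genes highest and the 2 genes lowest in the hippocampus of TDP-43wt mice among those with an entry in the RefSeq promoter table used, because these carry the largest regional differences described next. Each covers 300 bases around the start of the gene in RefSeq's annotation (GRCm38.p6), 5′ to 3′ on the gene's own strand, with matches to 5 short motifs in capitals. Drd5 lies at chr5:38319259-38319558 (+), Htr1a at chr13:105443443-105443742 (+), Adra1b at chr11:43901188-43901487 (-) and Htr1d at chr4:136423274-136423573 (+).
Drd5: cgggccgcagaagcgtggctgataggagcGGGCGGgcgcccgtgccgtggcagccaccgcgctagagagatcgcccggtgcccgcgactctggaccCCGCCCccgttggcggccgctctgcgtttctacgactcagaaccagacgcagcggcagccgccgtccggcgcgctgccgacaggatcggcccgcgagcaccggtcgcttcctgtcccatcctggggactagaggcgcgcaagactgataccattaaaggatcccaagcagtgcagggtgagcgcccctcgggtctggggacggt
Htr1a: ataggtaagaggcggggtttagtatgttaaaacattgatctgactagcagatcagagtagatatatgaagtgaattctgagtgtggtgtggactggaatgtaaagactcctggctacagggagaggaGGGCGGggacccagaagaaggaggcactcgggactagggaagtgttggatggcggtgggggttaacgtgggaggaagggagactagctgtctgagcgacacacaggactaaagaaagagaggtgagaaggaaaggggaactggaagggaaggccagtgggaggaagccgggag
Adra1b: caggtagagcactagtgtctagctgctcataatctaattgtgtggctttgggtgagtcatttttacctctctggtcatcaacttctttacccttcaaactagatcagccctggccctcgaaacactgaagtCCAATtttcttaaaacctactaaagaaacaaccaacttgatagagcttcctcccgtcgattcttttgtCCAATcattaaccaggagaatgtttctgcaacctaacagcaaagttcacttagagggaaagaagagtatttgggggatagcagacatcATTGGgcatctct
Htr1d: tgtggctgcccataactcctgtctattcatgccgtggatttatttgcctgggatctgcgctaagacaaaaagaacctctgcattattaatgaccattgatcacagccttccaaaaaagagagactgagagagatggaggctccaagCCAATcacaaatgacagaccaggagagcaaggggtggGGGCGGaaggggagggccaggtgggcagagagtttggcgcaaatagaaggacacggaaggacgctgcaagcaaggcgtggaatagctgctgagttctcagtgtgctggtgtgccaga
The motifs searched on both strands were the GC box (GGGCGG), the TATA box (TATAAA), the cyclic AMP response element (TGACGTCA), the CAAT box (CCAAT) and the E-box (CACGTG). Drd5 held 2 GC boxes, Htr1a held 1 GC box, Adra1b held 3 CAAT boxes, and Htr1d held 1 GC box and 1 CAAT box. An entry was found for 38 of the 51 genes, with none for Lynx1, Htr4, Htr5b and 10 others. A GC box was present in 21 of the 38, against 35.9% of 27025 promoters of the same length, and a CAAT box in 13 of the 38, against 38.0%. Among the genes called between regions in TDP-43wt mice as described next, a CAAT box occurred in 9 of 16 promoters of genes lower in the hippocampus and in 0 of 6 promoters of genes higher there. For the GC box the counts were 12 of 16 and 3 of 6, and for the E-box 0 of 16 and 1 of 6. Only 16 of the 22 genes called lower and 6 of the 11 called higher had an entry. The TATA box was found in 2 of the 38 (14.2% of all promoters), the E-box in 3 (7.2%) and the cyclic AMP response element in 0 (1.9%). These counts describe the letters in these windows and no more.

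The regional comparison asked which receptors differ between the hippocampus and neocortex of the same genotype. In TDP-43wt mice, 33 of 49 receptor transcripts passed the test (limma, Benjamini-Hochberg adjusted p under 0.05 over 17863 genes), with 11 higher and 22 lower in the hippocampus. Over all genes tested, 13.5% were called higher and 14.7% lower. In TDP-43KQ/KQ mice 33 of 49 again passed, 11 higher and 22 lower, where 17.2% of all genes were called higher and 18.2% lower. Both contrasts came from a single fit with a shared residual variance and shared sex and litter terms, so the calls of one genotype are not independent of the other's. In that fit, 10 transcripts were called higher and 20 lower in both genotypes. The median difference over the receptors was -0.14 in TDP-43wt and -0.13 in TDP-43KQ/KQ mice, beside 0.0054 and 0.013 over all genes, and the median size regardless of direction was 0.34 and 0.30 beside 0.11 in both genotypes. The call was made in TDP-43wt mice alone for Adra2b, Drd4 and Chrm1 and in TDP-43KQ/KQ mice alone for Htr6, Lynx1 and Lypd1, and the regional difference itself did not pass a test between genotypes for any of them.

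**Figure D1:**
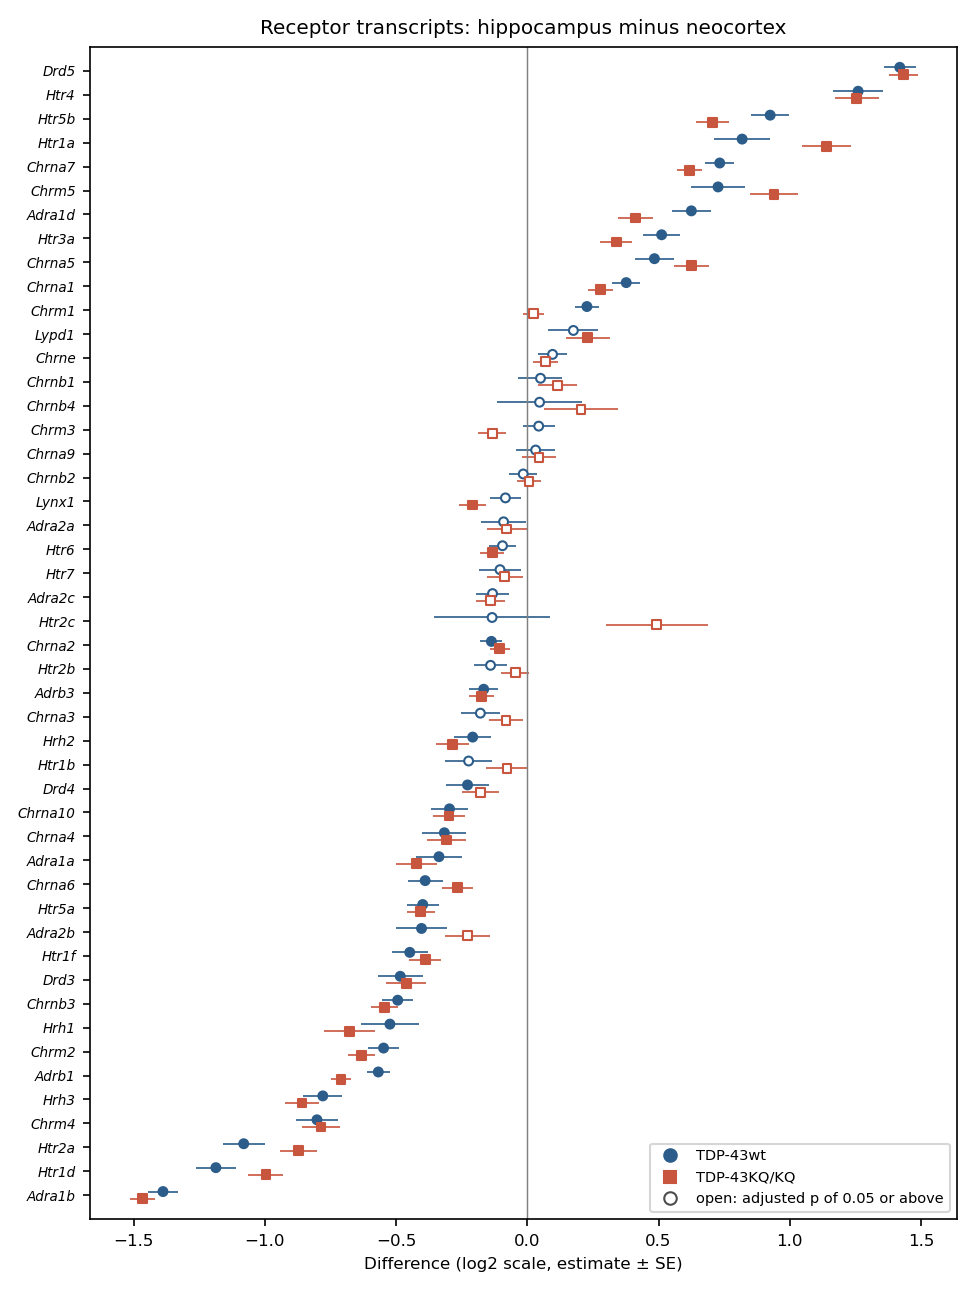
Difference between hippocampus and neocortex for 48 of the 49 receptor transcripts tested in both regions, on the log2 scale, in TDP-43wt (blue circles) and TDP-43KQ/KQ mice (red squares); bars are SE and open symbols did not pass an adjusted p of 0.05. Drd5 at the top and Adra1b at the bottom mark the extremes in both genotypes, and Htr2c has the widest bars.

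Of 13 serotonin receptors, 4 were higher and 4 lower in the hippocampus of TDP-43wt mice, and 4 were higher and 5 lower in TDP-43KQ/KQ mice. Htr4, a Gs-coupled receptor, was at 1.33, 1.23, 1.20 and 1.16 in hippocampus TDP-43wt libraries and at -0.32, 0.056, 0.047, -0.033 and 0.088 in neocortex TDP-43wt libraries. No hippocampal value came near a neocortical one, and the difference was 1.26 ± 0.096 (SE), adjusted p = 1.14e-07. Htr1a, the Gi-coupled autoreceptor of serotonin neurons that pyramidal cells also carry, was at 0.94, 1.11, 0.97 and 0.90 in the hippocampus against -0.073, 0.21, 0.17, 0.16 and 0.33 in the neocortex of TDP-43wt mice. The groups were separate and the difference was 0.82 ± 0.11 (SE), adjusted p = 3.3e-05; in TDP-43KQ/KQ mice it was 1.14 ± 0.094 (SE), adjusted p = 2.15e-07. Htr5b, one of a pair of Htr5 genes in rodents, was higher in the hippocampus by 0.93 ± 0.073 (SE) in TDP-43wt and 0.71 ± 0.064 in TDP-43KQ/KQ mice, while its relative Htr5a was lower there (-0.40 ± 0.061 and -0.41 ± 0.054). Htr3a, the channel-forming subunit that marks a class of interneurons, was higher by 0.51 ± 0.069 and 0.34 ± 0.061. These 4 were all of the serotonin receptors called higher in the hippocampus of TDP-43wt mice.

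Htr2a, the Gq-coupled receptor of neocortical pyramidal neurons that hallucinogens act on, was at -1.11, -1.05, -1.0 and -1.0 in hippocampus TDP-43wt libraries. In the neocortex it was at 0.019, 0.0086, 0.063, 0.044 and 0.087, so the regions stood far apart, and the difference was -1.08 ± 0.08 (SE), adjusted p = 8.89e-08. Htr1d, a Gi-coupled receptor of nerve terminals, was at -1.19, -1.10, -1.13 and -1.13 in the hippocampus against -0.18, 0.18, 0.17, 0.048 and 0.015 in the neocortex, a difference of -1.19 ± 0.076 (SE), adjusted p = 1.74e-08. In TDP-43KQ/KQ mice the difference was -0.87 ± 0.071 for Htr2a and -1.0 ± 0.067 for Htr1d. Htr1f and Htr5a completed the 4 serotonin receptors called lower in TDP-43wt mice, and Htr6 was called lower in TDP-43KQ/KQ mice (-0.13, adjusted p = 0.0313, against -0.095, adjusted p = 0.191, in TDP-43wt). Htr1b, Htr2b, Htr2c and Htr7 passed in neither genotype, although Htr2c passed in TDP-43KQ/KQ mice without either of the KQ/KQ F2 libraries, at 0.77 (adjusted p = 0.000701), against 0.49 (adjusted p = 0.0608) with them.

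Among adrenergic receptors, 7 of 9 were called in TDP-43wt mice, and 6 of those 7 were lower in the hippocampus. Adra1b, a Gq-coupled receptor for noradrenaline, had the largest negative difference of the receptors. It was at -1.34, -1.47, -1.55 and -1.38 in hippocampus TDP-43wt and -1.52, -1.38, -1.44, -1.48 and -1.51 in hippocampus TDP-43KQ/KQ libraries. Neocortical libraries lay at -0.036, -0.019, -0.025, -0.045 and -0.099 in TDP-43wt mice, and the regions differed by -1.39 ± 0.056 (SE), adjusted p = 1.96e-10, which is 2.62-fold if the scale is read as plain log2. Its relative Adra1d was the opposite, at 0.68, 0.35, 0.52 and 0.57 in the hippocampus against 0.017, -0.054, -0.096, -0.094 and -0.24 in the neocortex (0.63 ± 0.075 (SE), adjusted p = 1.3e-05). Adra1a sided with Adra1b, at -0.34 ± 0.089 (SE), adjusted p = 0.0104. The 3 genes of the alpha-1 class thus did not share a direction.

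Adrb1, the Gs-coupled beta receptor of cortical neurons, was lower in the hippocampus, with differences of -0.57 ± 0.045 (SE, adjusted p = 1.7e-07) in TDP-43wt and -0.71 ± 0.039 (adjusted p = 3.16e-09) in TDP-43KQ/KQ mice. Adra2b (-0.40) and Adrb3 (-0.17) were also called lower in TDP-43wt mice. The Gi-coupled autoreceptor gene Adra2a gave -0.091 and -0.078 in TDP-43wt and TDP-43KQ/KQ mice, and its relative Adra2c gave -0.13 and -0.14; neither passed.

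Drd5, the Gs-coupled D5 dopamine receptor, had the largest positive regional difference of the receptors. It was at 1.45, 1.5, 1.40 and 1.52 in hippocampus TDP-43wt libraries and 1.42, 1.42, 1.46, 1.31 and 1.55 in hippocampus TDP-43KQ/KQ libraries. All of these lay above the neocortical values, -0.021, 0.075, 0.089, 0.047 and 0.045 in TDP-43wt mice, and the regions differed by 1.42 ± 0.061 (SE), adjusted p = 3.9e-10, or 2.67-fold if read as plain log2. In TDP-43KQ/KQ mice the difference was 1.43 ± 0.054 (SE), adjusted p = 6.39e-11. Drd3 and Drd4, both Gi-coupled, were lower in the hippocampus of TDP-43wt mice, at -0.48 ± 0.087 (adjusted p = 0.000575) and -0.23 ± 0.082 (adjusted p = 0.0495), and Drd4 did not pass in TDP-43KQ/KQ mice.

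All 3 histamine receptors tested were lower in the hippocampus in both genotypes. Hrh3, the Gi-coupled receptor that limits histamine release, was at -0.84, -1.09, -0.97 and -0.87 in hippocampus TDP-43wt libraries and -0.14, -0.30, -0.043, -0.16 and -0.17 in neocortex TDP-43wt libraries (-0.78 ± 0.075 (SE), adjusted p = 1.33e-06). Hrh1, coupled to Gq, differed by -0.52 ± 0.11 and -0.68 ± 0.097 (SE) in TDP-43wt and TDP-43KQ/KQ mice, and Hrh2, coupled to Gs, by -0.21 ± 0.071 and -0.28 ± 0.063.

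The 5 muscarinic receptors split by gene. Chrm5, Gq-coupled and the rarest of the family in brain, was higher in the hippocampus, at 0.73, 0.76, 0.50 and 0.64 in TDP-43wt libraries against -0.15, -0.15, 0.087, -0.071 and -0.069 in the neocortex (0.73 ± 0.10 (SE), adjusted p = 6.39e-05). Chrm4, Gi-coupled and abundant in striatum, was at -0.93, -1.02, -0.92 and -0.93 in hippocampus TDP-43wt and -0.27, -0.13, -0.16, -0.15 and -0.028 in neocortex TDP-43wt libraries. All hippocampal values lay below all neocortical ones. Chrm2, the other Gi-coupled member, and Chrm4 gave differences of -0.55 ± 0.059 and -0.80 ± 0.081 (SE) in TDP-43wt and of -0.63 ± 0.052 and -0.79 ± 0.071 in TDP-43KQ/KQ mice. Chrm1, the main Gq-coupled receptor of pyramidal neurons, was higher in the hippocampus of TDP-43wt mice by 0.23 ± 0.045 (SE), adjusted p = 0.00132, and gave 0.024 ± 0.039 (SE), adjusted p = 0.673, in TDP-43KQ/KQ mice. Chrm3 passed in neither genotype (0.043 and -0.13), but did in TDP-43KQ/KQ mice without either of the KQ/KQ F2 libraries, at -0.20 (adjusted p = 0.00266).

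Among nicotinic subunits, 8 of 14 were called in each genotype, 3 higher and 5 lower. Chrna7, which forms the fast calcium-permeable channel on its own, was at 0.61, 0.56, 0.74 and 0.65 in the hippocampus against -0.045, -0.13, -0.13, -0.093 and -0.065 in the neocortex of TDP-43wt mice (0.73 ± 0.055 (SE), adjusted p = 9.28e-08). Chrna5, an accessory subunit, and Chrna1, a subunit of the muscle receptor, were higher by 0.48 ± 0.074 and 0.38 ± 0.054 (SE). Chrna4 and Chrnb2 together form the most common brain channel. Chrna4 was at -0.56, -0.47, -0.46 and -0.32 in hippocampus TDP-43wt and -0.082, -0.27, -0.12, -0.14 and -0.068 in neocortex TDP-43wt libraries, and Chrnb2 at -0.089, -0.093, -0.11 and -0.01 and -0.052, -0.16, -0.045, -0.06 and 0.011. Chrna4 was lower in the hippocampus (-0.32 ± 0.084 (SE), adjusted p = 0.0109), whereas Chrnb2 gave -0.016 ± 0.054 (SE), adjusted p = 0.858. Chrnb3, Chrna6, Chrna10 and Chrna2 were the other subunits called lower, at -0.49, -0.39, -0.30 and -0.14, and the call of Chrna2 in TDP-43wt mice was lost without any one of neocortex TDP-43wt F1 or M2 or hippocampus TDP-43wt F3 or M1 (adjusted p up to 0.0781). In TDP-43KQ/KQ mice its call, at -0.10, was lost without any one of neocortex TDP-43wt F3, neocortex TDP-43KQ/KQ F1, F2, M1 or M3, or hippocampus TDP-43KQ/KQ F1, F2 or M1 (up to 0.122). Chrna3, Chrna5 and Chrnb4 lie side by side on chromosome 9, and their differences in TDP-43wt mice were -0.18, 0.48 and 0.047. Chrna3 and Chrnb4, like Chrnb2, Chrna9, Chrnb1 and Chrne, passed in neither genotype.

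The Ly6-type genes showed small regional differences. Lynx1 gave -0.084 ± 0.058 (SE), adjusted p = 0.306, in TDP-43wt mice and -0.21 ± 0.051 (SE), adjusted p = 0.00457, in TDP-43KQ/KQ mice, and Lypd1 gave 0.18 ± 0.096 (SE), adjusted p = 0.191, and 0.23 ± 0.084 (SE), adjusted p = 0.0451. The Lypd1 call in TDP-43KQ/KQ mice was lost without any one of the TDP-43KQ/KQ F1, F3 and M2 libraries of either region, neocortex TDP-43wt F3, or hippocampus TDP-43wt F1 or M1 (adjusted p up to 0.135). Counted by library rather than by model, 36 of 49 receptors had hippocampal and neocortical TDP-43wt values that did not overlap (11 higher, 25 lower in the hippocampus), beside 32.1% of all genes, and 27 had no overlap in TDP-43KQ/KQ mice (10 higher, 17 lower), beside 27.7%.

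**Figure D2:**
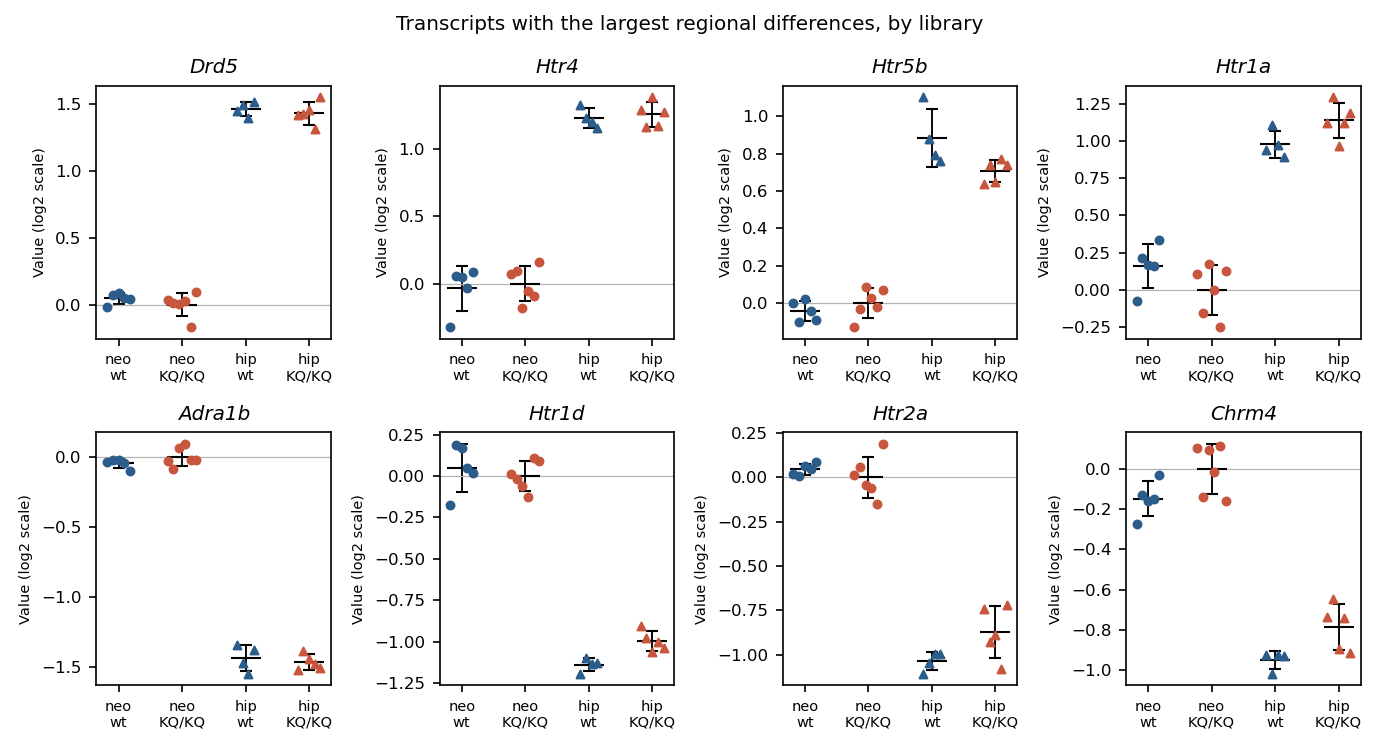
Value of each library (log2 scale, 0 at the mean of neocortex TDP-43KQ/KQ) for the 4 receptor transcripts highest and the 4 lowest in the TDP-43wt hippocampus relative to neocortex, with circles for neocortex and triangles for hippocampus, blue for TDP-43wt and red for TDP-43KQ/KQ; black bars are the mean ± SD of 5, 6, 4 and 5 libraries. In all 8 panels the hippocampal libraries lie apart from the neocortical ones in both genotypes.

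Marker transcripts of other tissues and cell types were compared between the same regions. All 11 measured striatal projection neuron markers were called lower in the hippocampus in both genotypes, with Penk at -3.23, Rasd2 at -1.35 and Gpr6 at -1.23 in TDP-43wt mice, and their mean per library ran from 0.056 to 0.47 in neocortex TDP-43wt libraries and from -0.21 to 0.14 in neocortex TDP-43KQ/KQ libraries, against -2.05 to -1.89 and -2.13 to -1.76 in the hippocampus. The striatum is known to be rich in Chrm4 and Drd3, which were both lower in the hippocampus. They were picked out by hand. The receptors were not sorted by striatal expression, so this pair does not stand for the set. Of 12 interneuron markers, 1 was called higher and 6 lower in the TDP-43wt hippocampus. Vip was at -0.87, Slc32a1 at -0.72, Calb2 at 0.28 and Adarb2 at 0.60, and at most 1 of Calb2 and Adarb2 passed. Of 6 medial habenula markers, 0 were higher and 3 lower, and of 8 thalamic markers 0 were higher and 2 lower. Of 8 astrocyte markers, 5 were called higher and 0 lower in both genotypes. Of 12 choroid plexus markers, 0 were called in TDP-43wt mice, and 11 were higher and 0 lower in the TDP-43KQ/KQ hippocampus. Of 8 markers of vascular smooth muscle and pericytes, 0 were called in TDP-43wt mice, and 4 were higher and 0 lower in TDP-43KQ/KQ mice. Of 9 microglial markers, 0 were called in either genotype. The part of these cells and tissues in the receptor differences was not tested.

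The genotype comparison asked whether the acetylation mimic changed receptor transcripts within each region. With both regions in 1 model, 0 of 49 receptors were called in the neocortex, where 0.224% of all genes were called (40 of 17863), and 3 of 49 had an unadjusted p under 0.05, where 14.4% of all genes did. In the hippocampus 1 of 49 was called, beside 0.386% of all genes (69), and 9 had an unadjusted p under 0.05, beside 14.8%. With each region fitted alone, 0 of 50 receptors were called in the neocortex (0.0382% of all genes; 4 at an unadjusted p under 0.05, beside 13.7%) and 0 of 49 in the hippocampus (0% of all genes; 7 at an unadjusted p under 0.05, beside 12.1%). These fits left 4 and 3 residual degrees of freedom. The hippocampal one did not call Tardbp, the edited gene, either (0.86 ± 0.13 (SE), adjusted p = 0.204, limma). Its count of 0 therefore does not show that receptors were unchanged. The paper, testing transcript abundance with a correction for sex and litter, reports far more genes in each region than the fits above called. The fits here used values from which sex and litter had already been removed. Their low counts therefore do not show that genotype left most transcripts unchanged. Neocortical receptor differences had a median of 0.025 and ran from -0.18 to 0.17; hippocampal ones had a median of 0.028 and ran from -0.31 to 0.65.

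**Figure D3:**
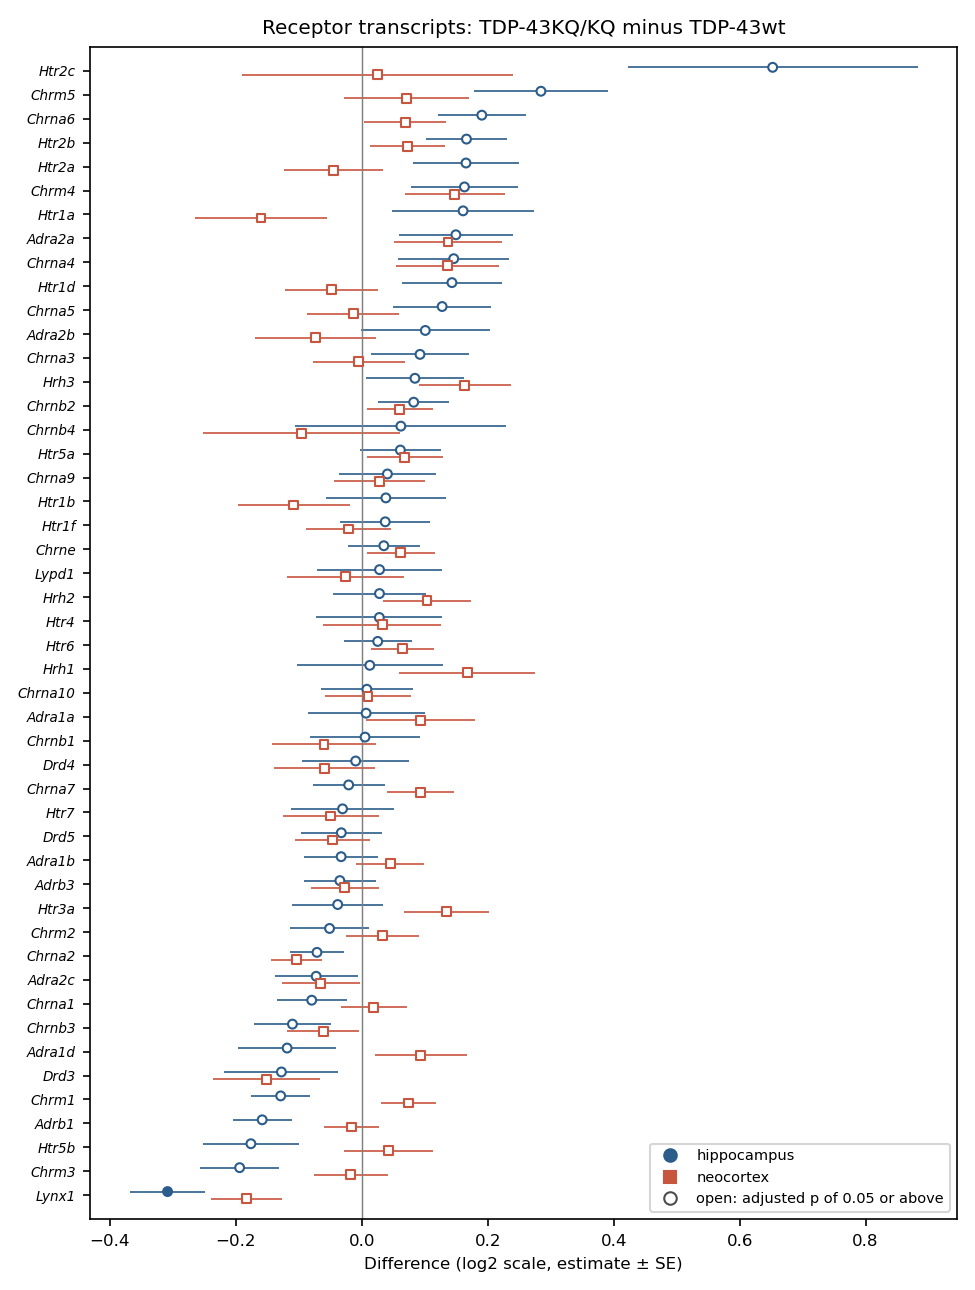
Difference between TDP-43KQ/KQ and TDP-43wt for 48 of the 49 receptor transcripts in hippocampus (blue circles) and neocortex (red squares) from the model of both regions, on the log2 scale; bars are SE and open symbols did not pass an adjusted p of 0.05. Lynx1 in the hippocampus, at -0.31, carries the filled symbol, and Htr2c in the hippocampus, at 0.65, has a wide bar.

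The 1 gene called was Lynx1, a Ly6-type gene, and no gene of the receptor families was called in the model of both regions. Lynx1 lies at chr15:74747852-74753046 on the minus strand of GRCm38, where it overlaps no other annotated gene. Hippocampus TDP-43wt libraries lay at 0.049, 0.11, 0.064 and 0.18 and TDP-43KQ/KQ libraries at -0.32, -0.11, -0.16, -0.24 and -0.22. Every TDP-43wt value was above 0 and every TDP-43KQ/KQ value was below it. The transcript was lower in TDP-43KQ/KQ mice (-0.31 ± 0.06 (SE), adjusted p = 0.0391, limma), which is 1.24-fold if the scale is read as plain log2. The call was kept without neocortex TDP-43wt M1, neocortex TDP-43KQ/KQ F1, F2 or M1, or hippocampus TDP-43KQ/KQ F2 or F3. Of these, leaving out neocortex TDP-43wt M1 repeats the main fit by construction. Leaving out either KQ/KQ F2 library gives one and the same fit. The call was lost without any one of the other 14 libraries. Over all 20 removals the differences were -0.34 to -0.25 and the adjusted p 0.0232 to 0.335 (limma). The call was also lost with the replicate block of female mouse as a random effect, at -0.31 (adjusted p = 0.0658). With the hippocampus fitted alone the difference was -0.40 ± 0.063 (SE), adjusted p = 0.204. The study's own list of hippocampal genes contains Lynx1 from these libraries, so that list is no independent evidence. The list came from the paper's own test, which differs from the fits here and called far more genes.

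In the neocortex, TDP-43wt libraries lay at 0.19, 0.21, 0.16, 0.18 and 0.18 and the 6 TDP-43KQ/KQ libraries at -0.099 to 0.12 (median -0.017). The groups did not overlap here either, and the difference was -0.18 ± 0.056 (SE), adjusted p = 0.188, short of the threshold. Lynx1 and Chrna2 were the 2 of 50 receptors whose neocortical groups did not overlap, beside 8.51% of all genes. Chrna2, a nicotinic subunit of a deep-layer and hippocampal interneuron class, lay at 0.12, 0.093, 0.083, 0.10 and 0.12 in TDP-43wt and -0.045 to 0.036 (median -0.00062) in TDP-43KQ/KQ libraries (-0.10 ± 0.041 (SE), adjusted p = 0.285). Hrh3 gave 0.16 ± 0.073 (SE), adjusted p = 0.327, and Htr3a and Chrm4, also among the lowest p-values, gave 0.13 and 0.15 without passing. Htr3b, an Htr3 channel subunit tested in the neocortex alone, gave -0.037 ± 0.055 (SE), adjusted p = 0.773.

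In the hippocampus the groups did not overlap for 6 of 49 receptors, Lynx1, Adrb1, Chrm1 and Chrm3 with lower and Chrm4 and Htr1d with higher TDP-43KQ/KQ values, beside 9.45% of all genes. Adrb1 lay at -0.52, -0.57, -0.61 and -0.52 in TDP-43wt and -0.75, -0.63, -0.73, -0.74 and -0.71 in TDP-43KQ/KQ libraries. The gap between the groups was narrow, and the difference was -0.16 ± 0.047 (SE), adjusted p = 0.161. Chrm1 lay at 0.15, 0.11, 0.19 and 0.17 against 0.028, 0.068, -0.036, -0.025 and 0.086, with TDP-43KQ/KQ values nearer to 0 (-0.13 ± 0.047 (SE), adjusted p = 0.234). Chrm3, the other broadly expressed Gq-coupled muscarinic receptor, lay at 0.012, 0.16, 0.032 and 0.041 against -0.22, 0.011, -0.19, -0.14 and -0.13. Its groups all but touched, with F2 the highest of both (-0.19 ± 0.063 (SE), adjusted p = 0.19). Chrm5, by contrast, gave 0.28 and Chrna6 gave 0.19, with adjusted p-values of 0.246 and 0.238.

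**Figure D4:**
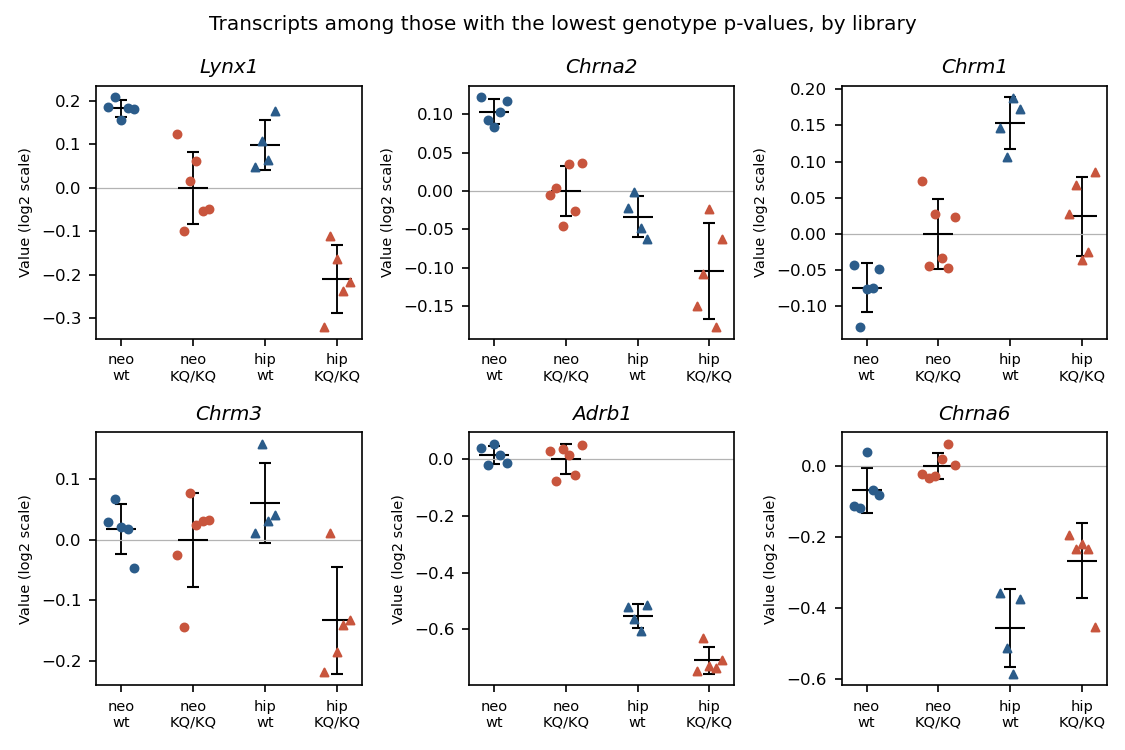
Value of each library (log2 scale, 0 at the mean of neocortex TDP-43KQ/KQ) for 6 receptor transcripts among those with the lowest genotype p-values, with circles for neocortex and triangles for hippocampus, blue for TDP-43wt and red for TDP-43KQ/KQ; black bars are the mean ± SD of 5, 6, 4 and 5 libraries, and each panel has its own scale. Lynx1 is lower in TDP-43KQ/KQ libraries of both regions without overlap, Chrna2 in the neocortex, and Adrb1, Chrm1 and Chrm3 in the hippocampus.

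Of 12 interneuron markers, 2 were called lower in the TDP-43KQ/KQ hippocampus, Sst (-0.44 ± 0.063 (SE), adjusted p = 0.00773) and Npy (-0.39 ± 0.051 (SE), adjusted p = 0.00338), both neuropeptides of hippocampal interneurons, and the mean of the list ran from -0.20 to -0.069 in TDP-43wt and from -0.33 to -0.25 in TDP-43KQ/KQ libraries. In the neocortex 0 of 12 were called, with list means of 0.11 to 0.16 against -0.065 to 0.027. The striatal list means there were 0.056 to 0.47 against -0.21 to 0.14 and 1 of 11 markers called, Penk at -0.67 ± 0.12 (SE), adjusted p = 0.0386. The means of the 11 hippocampal excitatory neuron markers did not overlap between genotypes in the hippocampus, at 1.29 to 1.35 in TDP-43wt and 1.03 to 1.20 in TDP-43KQ/KQ libraries, with a median genotype difference of -0.24 and 0 of 11 called. The part of any of these lists in the receptor values was not tested.

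Htr2c, the Gq-coupled serotonin receptor that choroid plexus epithelium expresses at very high levels, had the largest genotype difference in size. Hippocampus TDP-43wt libraries lay at -0.40, -0.16, -0.22 and 0.14 and TDP-43KQ/KQ libraries at 1.12, -0.091, 0.40, 0.47 and 0.57. The groups overlapped through F2, and the difference was 0.65 ± 0.23 (SE), adjusted p = 0.223. Without the hippocampus TDP-43KQ/KQ F1 library it was 0.31 (adjusted p = 0.848), and without either of the KQ/KQ F2 libraries it was 0.82 and passed (adjusted p = 0.037). With the hippocampus fitted alone it was 0.89 ± 0.21 (SE), adjusted p = 0.274, and without hippocampus TDP-43wt M1 that fit gave 1.40 (adjusted p = 0.0259). In the neocortex the difference was 0.025 ± 0.22 (SE), adjusted p = 0.969.

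The 12 choroid plexus markers were spread in the same way. Their mean was -0.12, 0.49, 0.92 and 1.87 in hippocampus TDP-43wt and 3.38, 0.29, 1.55, 2.10 and 2.11 in hippocampus TDP-43KQ/KQ libraries. The F1 library that was highest for Htr2c was also highest for these markers, and all 12 gave a positive genotype difference in the hippocampus (median 1.06) without any passing the test. In the neocortex the list ran from -0.35 to 0.66 in TDP-43wt and from -0.78 to 1.60 in TDP-43KQ/KQ libraries. Its highest mean was in F2, where Htr2c was 0.58. Through the removal of litter, the deviations of that library mirror those of hippocampus TDP-43KQ/KQ F2, so the F2 values of the regions are not separate observations. Ttr, the most abundant choroid plexus transcript, ran from -0.22 to 3.94 in hippocampus TDP-43wt and from -0.36 to 6.61 in hippocampus TDP-43KQ/KQ libraries. The part of choroid plexus tissue in the Htr2c values was not tested.

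**Figure D5:**
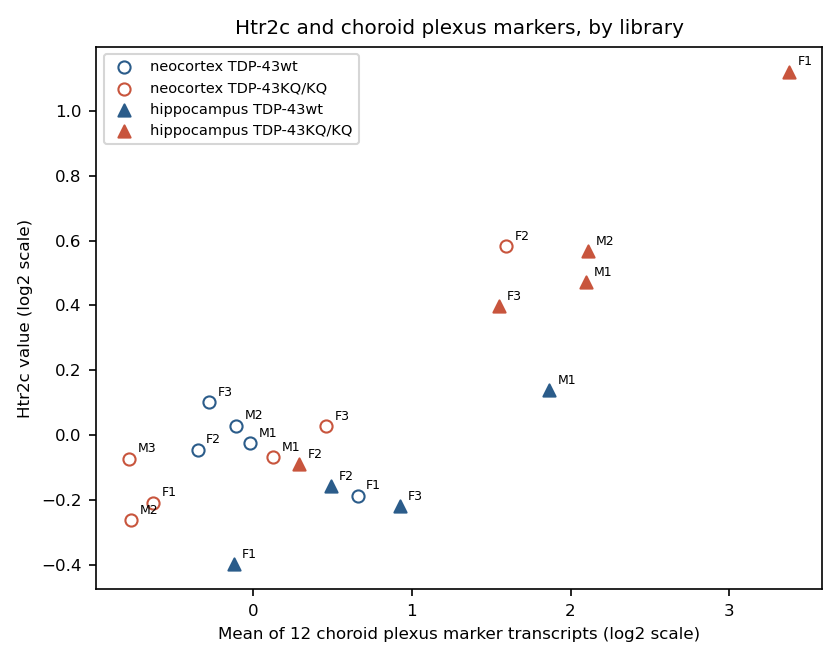
Htr2c value of each library (vertical, log2 scale) against the mean of 12 choroid plexus marker transcripts (horizontal, log2 scale), with open circles for neocortex and filled triangles for hippocampus, blue for TDP-43wt and red for TDP-43KQ/KQ, each labelled by sex and number. Hippocampus TDP-43KQ/KQ F1 is highest on both axes, at 3.38 and 1.12.

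The genotype differences of the regions were then set against each other in the same model. For 0 of 49 receptors did they differ (limma, 0% of all genes called), and 6 had an unadjusted p under 0.05, beside 5.83% of all genes. These 6 were Chrm1 (-0.20 ± 0.06, SE, hippocampal minus neocortical difference), Chrm3 (-0.18 ± 0.08), Adrb1 (-0.14 ± 0.06), Htr5b (-0.22 ± 0.097), Htr1a (0.32 ± 0.14) and Htr2c (0.63 ± 0.29). For Lynx1 the regions gave -0.13 ± 0.077 (SE), adjusted p = 0.846.

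TDP-43 is known to bind RNA with runs of UG repeats. The longest unbroken GT run was therefore sought in the GENCODE protein-coding transcripts of each gene (GRCm38, written as DNA). These are spliced sequences, so introns were not searched, and a gene without a long run here may hold one there. A run of 12 bases or more was present in 4 of the 51 genes, beside 7.23% of 21877 genes. It was 46 bases long in the 3′ UTR of 1 of 5 Lypd1 transcripts (chr1:125871637-125871682, minus strand), 37 bases in the 3′ UTR of Chrna1 (chr2:73565415-73565451, minus strand) and 31 bases in the 3′ UTR of 1 of 2 Htr1b transcripts (chr9:81630102-81630132, minus strand). All 3 Chrm1 transcripts held a run of 12 bases or more. The longest was 45 bases, in the 5′ UTR of the transcript that held it (chr19:8663973-8664017, plus strand). The longest run in Lynx1 was 8 bases, in the 3′ UTR (chr15:74748469-74748476, minus strand). The start of the run is shown in capitals with the preceding bases in lower case for Chrm1. Its run was the longest among genes whose transcripts all held 12 bases or more. For Lynx1, the gene called, the whole run is shown with its flanks.
Chrm1: ttgtgagaggGTGTGTGTGTGTGTGTGTGT
Lynx1: cagcaccaaaTGTGTGTGcttctgtgggat
The 4 genes with long runs gave hippocampal genotype differences of 0.028 (Lypd1), -0.13 (Chrm1), -0.08 (Chrna1) and 0.038 (Htr1b), and neocortical ones of -0.026, 0.074, 0.019 and -0.11, and none passed the test.

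Genes that make, clear or relay these transmitters were followed through 6 lists. The genes named from them were chosen by the size of their regional difference, whether or not they passed. Between genotypes, 0 genes of any of the 6 lists passed in either region with both regions in 1 model. Between regions of TDP-43wt mice, 5 of 8 acetylcholine genes were called lower and 1 higher in the hippocampus. The lower ones were led by the choline transporter Slc5a7 (-1.73 ± 0.15, SE) and choline acetyltransferase Chat (-1.34 ± 0.11). Slc44a1 was at 0.25 and Bche at 0.045, and at most 1 of these passed. Chat also marks striatal interneurons, and it was lower in every hippocampal library (-1.16 to -0.96 in TDP-43wt) than in any neocortical one (-0.12 to 0.45). The part of striatal tissue in the Chat values was not tested. Of 20 genes of monoamine synthesis, uptake and breakdown, 1 was called higher and 3 were called lower. The monoamine transporter Slc29a4 was at 1.06 and Slc18a2 at 0.36, of which at most 1 passed, against tyrosine hydroxylase (Th) at -0.96 and Slc22a3 at -0.66.

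Downstream of the receptors, 2 of 11 G protein alpha subunits were higher and 2 lower in the TDP-43wt hippocampus, with Gna14 at 0.39 and Gnaq at 0.32 against Gnal, the striatal and olfactory stimulatory subunit, at -1.09 and Gnaz at -0.18. Of 13 adenylyl cyclases and phospholipase C beta genes, 3 were higher and 4 lower, with Adcy1 at 0.50 and Adcy9 at 0.39 against Plcb4 at -1.18 and Adcy5 at -1.16. Of 15 receptor kinases, arrestins and RGS proteins, 3 were higher and 6 lower, with Rgs14 at 0.61 and Grk4 at 0.36 against Rgs9 at -2.20 and Rgs4 at -1.62. Of 9 nicotinic accessory genes outside the receptor set, 1 was higher and 5 lower, with Ly6h at 0.28 against Lypd6b at -0.54 and Musk at -0.37. Gnal, Adcy5 and Rgs9 are known as striatal transcripts and were lower in the hippocampus. They were picked out by hand, from lists in which 2, 3 and 3 genes were higher, so they do not stand for those lists. The part of striatal tissue in these values was not tested.

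Of the 51 receptor genes, 21 overlap another annotated gene, 17 of them a gene on the opposite strand. Drd5, Htr5b, Hrh3, Htr3a, Chrm1 and Chrnb2 are among the latter, and reads of either strand may have been assigned to them where the counting did not use strand, which is not given in the sources used here.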

How the data were processed

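The 11 neocortex and 9 hippocampus libraries were of rRNA-depleted total RNA. According to the labels and methods, adapters were cut by the authors with cutadapt, alignment to mm10 used STAR (2.5.2b) and quantification salmon, the variance-stabilising transformation came from DESeq2 (1.34.0, R 4.1.0), and limma then took out the effects of sex and litter. On deposit, the authors' values are thus on a log2-like scale, and each gene was found to be centred on the mean of the neocortex TDP-43KQ/KQ libraries. Read counts were not used here, so depth and its precision are unknown.

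Genes at 0 in every library (4383 of 24528, tolerance 1e-08) and genes tied in all 3 libraries of a sex and litter in a region were dropped. Tests then covered 18329 neocortical genes, 18310 hippocampal genes and 17863 genes for fits of both regions. limma (3.58.1, R 4.3.3) fitted group, sex and litter to each region alone and to both regions together, with moderated statistics and Benjamini-Hochberg adjustment over all genes kept; a call is an adjusted p under 0.05. Differences are ± SE. The method was run on simulated data with independent libraries and shifts larger than most genotype differences given here. That run does not show how it performs for smaller differences or paired libraries. The receptor genes, marker lists and tests were chosen with earlier results of these data known. Genes named are those called for genotype, the 6 of lowest p for genotype in each region, the 8 highest and 8 lowest regional differences in TDP-43wt, and 13 fixed genes; others were named to complete a count, and of each list those called for genotype and the 2 highest and 2 lowest regional differences. A few genes that the rule names are not reported here. Alternatives changed the filter, centring, variance model, sex and litter terms and pairing, and left out each library in turn.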

Additional observations from a re-analysis of the deposited data

Results flagged for a closer look

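In 104 groups of libraries (26 named receptor genes in 4 groups), 6 held a library whose distance to its nearest neighbour took up more of the group's range than Dixon's critical value allows, and chance alone flags about 1 group in 20. Htr2c in neocortex TDP-43KQ/KQ F2 was 0.58, with the other 5 libraries between -0.26 and 0.027. Drd5 in neocortex TDP-43KQ/KQ M2 was -0.17, with the others between 0.0050 and 0.091. Chrm2 in neocortex TDP-43wt M2 was -0.10, with the others between -0.033 and -0.0066. Chrm4 in hippocampus TDP-43wt F2 was -1.02, with the others between -0.93 and -0.92. In hippocampus TDP-43KQ/KQ M2, Htr3a was 0.45, with the others between 0.30 and 0.32, and Chrna6 was -0.46, with the others between -0.23 and -0.20. The Htr2c value is that of a library whose deviation mirrors that of hippocampus TDP-43KQ/KQ F2 through the removal of litter.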

How the results depend on the processing

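The counts of receptors called between regions stayed within 1.5 times of 33 under all alternatives run, between 28 and 33 in TDP-43wt and between 30 and 36 in TDP-43KQ/KQ mice when single libraries were left out, and the difference between the genotype effects stayed at 0. For genotype, the hippocampal count from the model of both regions moved from 1 to 8 with groups alone, to 2 without both KQ/KQ F2 libraries (chosen after seeing the data) and to between 0 and 2 when single libraries were left out. In the neocortex with both regions the count was 2 with groups alone. With the neocortex alone it was 2 with groups alone, 2 with sex without litter and 2 with litter as a random effect. With the hippocampus alone it was 1 under each of these 3 settings and between 0 and 1 when single libraries were left out. Sex and litter had already been removed from the values. Fits without litter as a fixed term do not count the degrees of freedom that its removal used, so their counts are too generous. With groups alone, the hippocampal contrast of both regions called 2077 of all genes, beside 69 in the main fit. The causes of single moves were not tested.

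Shared numbers were not taken as pairs: correlations of deviations from group means ran from -0.60 to 0.12 between genotypes. Between regions they ran from -1 to 0.72, but the removal of litter over both regions sets the -1 and affects the others, so they do not show whether the female libraries came from the same mice. With the replicate block of sex and number, 1 receptor was called in the neocortex alone (Lynx1) and 0 in the hippocampus alone; with the replicate block of female mouse as a random effect (correlation 0.27), 0 were called for genotype in either region (the call of Lynx1 was lost), 0 for the difference of genotype effects, and 34 and 35 between regions in TDP-43wt and TDP-43KQ/KQ mice, and with females alone and mouse as a fixed block 29 and 26. The 72 differences of single receptors followed were those of named genes with an unadjusted p under 0.05 in the main fit. Over 1948 fits, 0 reversed, 58 lost and 31 gained a call. Differences chosen in this way seldom change direction, so the absence of reversals is no evidence that they are stable. Some of these fits also repeat each other. Without neocortex TDP-43wt M1 the main fit is repeated, and with both regions either KQ/KQ F2 library gives the same fit. The number of libraries limits precision, and differences of weakly expressed receptors are understated on this scale.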
